A study of Mus musculus with 3 samples.

Results

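Spock2 and Itm2a are 2 of the 296 genes that MERFISH counted in sagittal sections of wild-type mouse embryos. They were picked with their values known, among them the higher levels at E15.5 and the levels in brain and vessel cells. Differences in level between stages, and between the cell sources of the E15.5 section, are therefore descriptions with no test. Endothelial and muscle-type cells, as defined below, were tested against other cells over sections, as was the endothelial difference between stages. The p-values of these tests for Spock2 and Itm2a are not independent of how the 2 genes were picked. MERFISH identifies single RNA molecules where they lie, each by a barcode read in successive rounds of imaging. The groups were E9.5, with 2 sections from 2 different wild-type whole embryos, and E15.5, with 1 section from 1 wild-type whole embryo. The labels name no treatment and no altered allele. A cell entered with 10 or more panel counts, and 830 of 1077, 6334 of 6835 and 195915 of 219525 cells did so in E9.5 section 1, E9.5 section 2 and the E15.5 section. A level below is the share of a cell group's panel counts, per 1000000 counts (CPM). Its 95% interval is an exact Poisson interval that covers counting error only, and E15.5 has no replicate.

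Spock2 encodes testican-2, a secreted proteoglycan of the SPARC family that carries glycosaminoglycan chains and is abundant in nervous tissue. Itm2a encodes a membrane protein with a BRICHOS domain, first studied in cartilage and bone formation and also known from developing muscle and thymocytes. Both genes have also been listed among those enriched in the endothelium of the brain. The vessels of the brain form a barrier whose endothelial cells carry dedicated transporters, such as the lipid transporter Mfsd2a and the amino acid transporter Slc7a5. In tissue sections, a molecule that lies across a drawn cell border is counted in the neighbouring cell, so levels in thin vessel cells are given beside those of the cells around them.

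Sources of counts were separated by gates on other genes. A cell was endothelial-gated with at least 3 counts over Pecam1, Cdh5, Kdr, Emcn and Cldn5 and at least 2 of these 5 genes above 0, and neuronal with at least 5 counts of Stmn2, a stathmin of neurons. The E15.5 section held 11711 endothelial-gated and 31002 neuronal cells, and E9.5 section 2 held 316 and 7. E9.5 section 1 held 12 endothelial-gated and 0 neuronal cells, so the neuronal source could be read at E15.5 only. Genes that the gates did not use were checked in them. At E15.5 Clec14a, an endothelial lectin, was at 2012 CPM in endothelial-gated cells and 438 CPM in the others, and Tubb2b, a neuronal tubulin, was at 56162 CPM in neuronal cells. Clec14a was at 4515 against 509 CPM in E9.5 section 2 and at 552 against 315 CPM in E9.5 section 1. The gated cells of section 1 held only 1810 panel counts, so the gate could hardly be checked there. None of the 32 striated muscle markers listed for this work is in the panel. Muscle-type cells were therefore read through Acta2, Myh11 and Pdlim3, a muscle LIM protein. The E9.5 sections held wide areas in which Gnas, abundant elsewhere, was under 1% of panel counts among a cell's 20 nearest cells. These low-Gnas areas held 53.5% and 45.1% of kept cells.

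Spock2 was at 1356 CPM (1095 to 1661) in E9.5 section 1, 746 CPM (694 to 801) in E9.5 section 2 and 5648 CPM (5616 to 5680) in the E15.5 section. The E15.5 level was 4.16-fold (3.40 to 5.16) and 7.57-fold (7.05 to 8.14) that of E9.5 sections 1 and 2. Itm2a was at 2173 CPM (1838 to 2551), 3556 CPM (3442 to 3673) and 13933 CPM (13883 to 13983), which is 6.41-fold (5.46 to 7.58) and 3.92-fold (3.79 to 4.05). The 2 E9.5 sections stood in opposite order for the 2 genes. At least 2-fold against each E9.5 section, 15.9% of the 296 genes were higher at E15.5, and nothing is read from the place of Spock2 and Itm2a among the 47 higher ones. Stage and section cannot be told apart at E15.5. A level over a section combines which cells it cut with how much each cell held.

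Spock2 was higher inside the low-Gnas areas in both E9.5 sections. Inside and outside them, Spock2 was at 2223 and 746 CPM in section 1, and at 1284 and 426 CPM in section 2. The intervals did not overlap in section 1 (1708 to 2844 against 503 to 1064) or in section 2 (1173 to 1402 against 377 to 479). Itm2a went the other way in section 1, at 600 CPM inside and 3281 CPM outside, and was at 3364 and 3671 CPM in section 2. The blank codes, barcodes given to no gene, set the floor for these readings: the highest of the 19 reached 685 CPM in section 1 and 380 CPM in section 2. Spock2 outside the low-Gnas areas lay close to it in both sections, and Itm2a inside them lay below it in section 1. Whether these areas differ in tissue or in signal was not tested.

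At E9.5 Spock2 went with Prtg, which encodes protogenin, a membrane protein of the early embryo's undifferentiated tissues. Over 129 squares of 100 micrometres in section 2, Prtg and Ctsz had the highest correlation with Spock2 (Pearson r = 0.51 each, on log2 of CPM plus 10), followed by Cldn5, Notch1 and Ephb4. In section 1, cells outside the endothelial gate with 3 or more Prtg counts held 2845 CPM of Spock2 inside the low-Gnas areas, against 321 CPM in cells with fewer. Outside these areas the same groups held 1131 and 294 CPM. In section 2 they held 1397 and 1084 CPM inside, and 528 and 203 CPM outside. The Prtg group had the higher Spock2 value each time, but in the low-Gnas areas of section 2 the intervals overlapped (1266 to 1538 against 843 to 1372), and the values of 321, 294 and 203 CPM lie below the highest blank codes. Cells of the Prtg group also had more counts (medians of 82, 117, 147 and 215 against 27, 48, 52 and 63). The E9.5 genes most like Itm2a over squares were Fkbp1a (r = 0.66), Col5a2, Hmmr, Foxp1 and Ran. Of these, only the collagen gene Col5a2 was also among the 5 most like it at E15.5.

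At E15.5 Spock2 and Itm2a lay in nearly separate sources. Of the 119899 Spock2 counts in kept cells, 71.6% were in neuronal cells, and of the 295761 Itm2a counts 2.37% were. Neuronal cells held 20992 CPM of Spock2, 13.7-fold (13.5 to 13.9) the 1536 CPM of cells in neither gate. For Itm2a neuronal cells held 1711 CPM against 17752 CPM, 10.4-fold (10.1 to 10.6) lower. At least 1 Spock2 molecule was found in 75.1% of neuronal cells (74.6 to 75.6, exact Clopper-Pearson), at a median of 111 panel counts per cell. The share was 9.58% in Acta2 and Myh11 cells, 9.63% in Pdlim3-gated cells and 11.2% in mesenchyme-type cells, at medians of 181, 244 and 151 counts. It was lowest, at 0.599%, in red-cell-type cells, gated on Car2 and Bpgm with a median of 57.0 counts. The neuronal test across sections could not be made, since no E9.5 section held 10 neuronal cells.

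Among the 13 exclusive sources at E15.5, Spock2 was highest in endothelial-gated cells that also held 5 or more Stmn2 counts (25958 CPM) and in neuronal cells, then in cells gated on the radial glia genes Fabp7 and Slc1a3 (5791 CPM). Endothelial-gated cells with less Stmn2 followed at 2282 CPM. The lowest were Pdlim3-gated cells at 522 CPM, macrophage-type cells at 480 CPM and red-cell-type cells at 97 CPM. The highest blank code of the E15.5 section reached 449 CPM, so the values of 522 and 480 CPM lie near it and 97 CPM below it. Itm2a was highest in Pdlim3-gated cells at 32502 CPM (32074 to 32934), ahead of cells with Cytl1, a cartilage cytokine, at 24946 CPM. Acta2 and Myh11 cells followed at 19695 CPM and mesenchyme-type cells, gated on Dcn, Col1a2, Prrx1 and Prrx2, at 19297 CPM. These last 2 neighbours did not differ beyond counting error (1.02-fold, 0.997 to 1.04). The same held for Spock2 in ungated and pericyte-type cells, in Cytl1 and mesenchyme-type cells, and in Pdlim3-gated and macrophage-type cells. The largest share of Itm2a counts (49%) lay in cells that passed no gate, where its level was 18078 CPM.

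**Figure D1:**
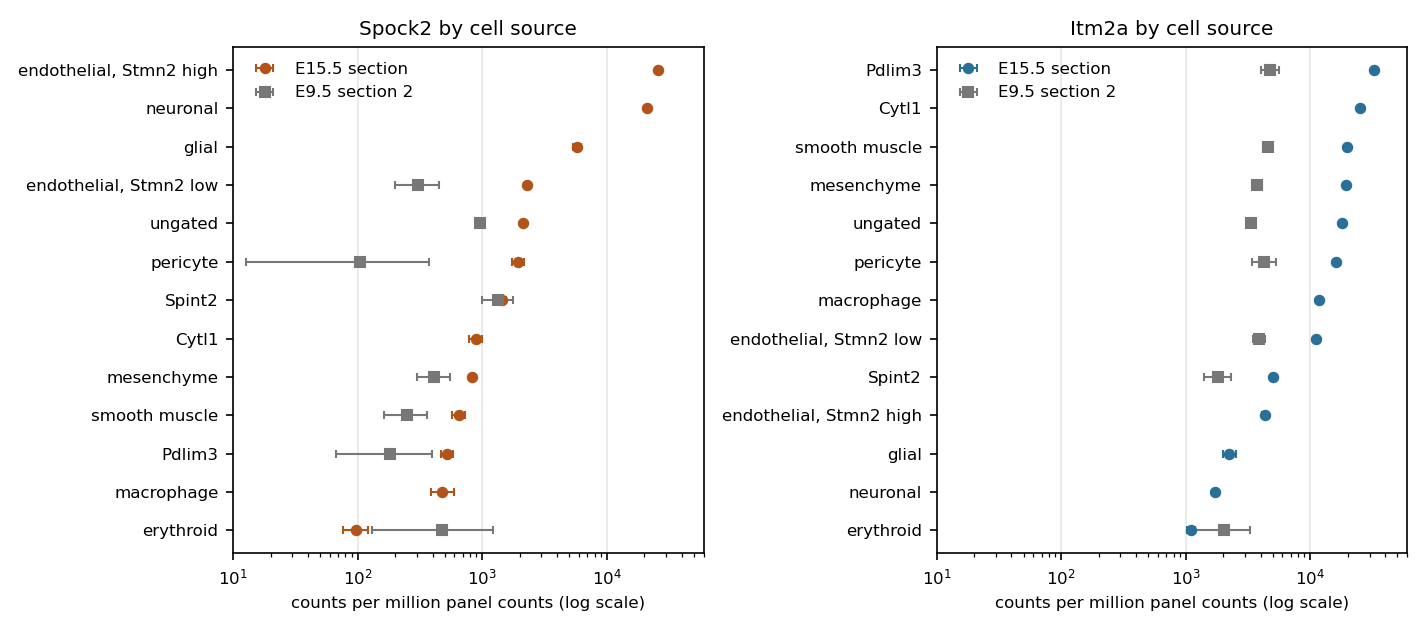
Level of Spock2 (left) and Itm2a (right) by exclusive cell source, in CPM on a log axis. Circles are the E15.5 section and squares E9.5 section 2, each for sources with at least 50 cells and a count above 0; bars are exact 95% Poisson intervals. Spock2 is highest in the 2 sources with high Stmn2 and Itm2a in Pdlim3-gated cells, and every Itm2a value of E9.5 section 2 other than the erythroid one lies below that of E15.5.

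Neurons were not alike in Spock2. Neuronal cells with 3 or more counts of the sodium channel gene Scn7a held 40826 CPM, against 20068 CPM in the other neuronal cells, and those with 3 or more of the retinol receptor gene Stra6 held 37893 against 20253 CPM. These cells held more counts in all, with medians of 245 and 260 against 109 in both comparison groups. In neuronal cells with Hand2, a transcription factor of sympathetic and enteric neurons, Spock2 was lower at 12500 against 22004 CPM. Those 2191 cells had Itm2a at 4337 CPM, 3.10-fold (2.94 to 3.27) the 1399 CPM of the others. Splitting on Fabp7 or Foxp1 gave Spock2 ratios of 0.987 and 1.02, with intervals that hold 1. The splits were chosen after values had been seen.

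Across the section the 2 genes were distributed very differently. Over 2758 squares with at least 1000 panel counts, the top 10% of squares held 65.5% of Spock2 and 45.9% of Itm2a, summed as CPM. Spock2 was listed at 0 in 545 squares and Itm2a in 82. The genes most like Spock2 over squares were Stmn2 (r = 0.72), Tubb2b (0.69), the peptide-processing enzyme gene Cpe (0.68), the sodium channel gene Scn3a (0.64) and Tspan7 (0.64). Those most like Itm2a were the cell cycle inhibitor gene Cdkn1c (0.73), Anxa6 (0.70), the fibrillar collagen genes Col1a2 (0.69) and Col5a2 (0.66), and Fibin (0.66). The correlation between Spock2 and Itm2a was -0.08, and it was -0.35 over squares of 50 and -0.15 over squares of 200 micrometres. Squares share section, depth and cell mixture, so these are descriptions.

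**Figure D2:**
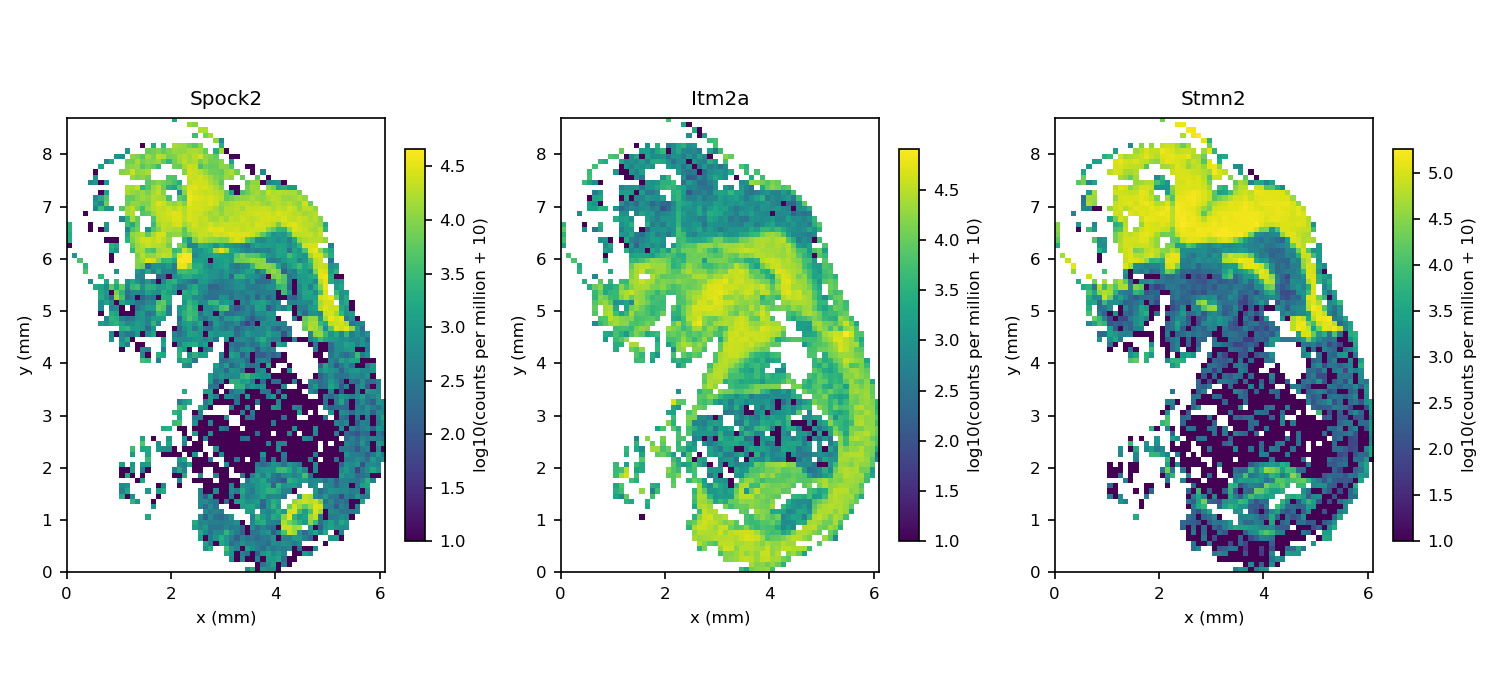
Maps of the E15.5 section in squares of 100 micrometres for Spock2, Itm2a and Stmn2. Colour gives log10 of CPM plus 10, on a scale of its own in each panel, axes are in mm, and white squares had under 1000 panel counts. Spock2 and Stmn2 fill the same areas at the top of the section, a Spock2 ring near the bottom has no counterpart in Stmn2, and Itm2a is high between these areas.

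Spock2 had 1 large source outside nervous tissue. Of 633 squares at or above 5000 CPM of Spock2, 37 were below 5000 CPM of Stmn2, and 28 of these formed 1 connected patch. Its squares ran from 5719 to 35636 CPM of Spock2 with a median of 19696, while Stmn2 had a median of 330 and Itm2a of 1248 CPM. The patch held 0.926% of kept cells, 5.26% of all Spock2 counts and 25.5% of those in cells that were neither endothelial-gated nor neuronal. Genes raised in it included Wnt4 at 7024 CPM (5.45-fold the rest of the section) and Foxd1 at 4103 CPM (5.40-fold). Wnt4 and Foxd1 are known from the developing kidney, where Wnt4 acts in forming nephrons and Foxd1 marks the stroma. Top2a and Ccnd1, genes of dividing cells, were 3.16-fold and 3.10-fold. The patch was chosen from the map, so no test was made, and no label names an organ.

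In the patch Spock2 was alike in cells with 2 or more counts of either of these genes and in cells with none. Cells outside the endothelial gate held 23378 CPM of Spock2 with 2 or more Wnt4 counts and 22433 CPM with none, and 20856 CPM with 2 or more Foxd1 counts and 20419 CPM with none. All patch cells outside that gate held 22255 CPM. Cells with exactly 1 count thus lay above both values for Foxd1 and below both for Wnt4. Outside the patch, among cells with no neuronal cell near them, those with 2 or more Wnt4 counts held 919 CPM and those with 2 or more Foxd1 counts 1107 CPM. Within the patch Spock2 was at 29043 CPM in ungated cells and at 14466 CPM in 32 pericyte-type cells. It was at 2233 CPM in cells gated on the epithelial gene Spint2 and at 871 CPM in mesenchyme-type cells, the latter close to the 825 CPM of such cells outside it with no neuronal cell nearby.

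Endothelial-gated cells as a whole did not pass the test against all other cells for Spock2 or Itm2a. Spock2 was at 0 CPM (0 of 1810 counts, interval up to 2038 CPM) in the 12 endothelial-gated cells of E9.5 section 1. The other cells there held 1393 CPM. Endothelial-gated against other cells, Spock2 was at 305 against 786 CPM in section 2 and at 5252 against 5691 CPM at E15.5. The section 2 ratio was 0.388 (0.252 to 0.573), and its endothelial level lies below that section's highest blank code. The other cells of E15.5 include the neurons, and against cells in neither gate the endothelial-gated cells held 3.42-fold (3.34 to 3.50) more Spock2, at 5252 against 1536 CPM. That comparison leaves out cells with high Stmn2 on the second side only. Such cells gave 6785 of the 10943 endothelial-gated Spock2 counts, and endothelial-gated cells with less Stmn2 held 2282 CPM. Itm2a was at 1105 (2 counts) against 2202 CPM, 3894 against 3526 CPM and 10323 against 14326 CPM. With sums per section and the section as a block, edgeR's quasi-likelihood test gave a log2 fold of -0.94 ± 0.50 (SE) for Spock2 (adjusted p = 0.364) and -0.35 ± 0.34 for Itm2a (adjusted p = 0.628). Neither gene was called, where 2.75% of 291 genes were called higher (8 genes) and 0.344% lower (1 gene, Tox2). The 8 included the Notch ligand gene Dll4, the apelin receptor gene Aplnr and Ptprb. Without E9.5 section 1 the test called 18 genes, and without the low-Gnas areas 0, with 29 higher and 5 lower at an unadjusted p below 0.05 and log2 folds of -0.31 for Spock2 and 0.03 for Itm2a.

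The change of this endothelial difference between stages was tested on the same sums. The interaction was 1.48 ± 0.77 for Spock2 (log2, edgeR adjusted p = 0.384) and -0.32 ± 0.65 for Itm2a (adjusted p = 0.962), with 1 residual degree of freedom. Without E9.5 section 2 the Itm2a value turned to 0.44, from 2 counts in the endothelial-gated cells of section 1. By the interaction test 0.687% of 291 genes (Vtn and Sparcl1) were higher and 0.344% (Tll1) lower. Of the 9 other brain endothelial genes measured, such as the glucose transporter gene Slc2a1, Mfsd2a and Slc7a5, none passed in either direction in either test. At an unadjusted p below 0.05, 1 was higher in the first and 5 in the interaction, beside 25 and 33 of all 291 genes. DESeq2 called 2 and 0 of them higher, beside 24 and 2 of all genes. Their median interaction was 1.58 beside 0.28 over all genes tested. Of the 13 other proteoglycan and matrix genes none passed in the first test (1 at an unadjusted p below 0.05, 1 by DESeq2) and Sparcl1, a SPARC family gene, passed in the second at 2.58, with a list median of 0.39. Itm2a was the only 1 of 8 BRICHOS genes in the panel.

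The Spock2 level of endothelial-gated cells depended on what lay around them. Surroundings were read from the 20 closest cells outside the endothelial gate, up to 100 micrometres away, as the percentage of them that were neuronal. From no neuronal cell through bands of up to 25, 50, 75 and 100%, Spock2 in endothelial-gated cells was at 1130, 4939, 10270, 20691 and 29916 CPM. In the cells that were not endothelial-gated it was at 1157, 3154, 9228, 16734 and 22962 CPM. The endothelial-gated cells were above the others in each band that held neurons. With no neuron near they were level over the whole section, and 1.20-fold (1.13 to 1.27) higher once the Spock2-rich patch described above was left out. With a share of at least 50% taken as neural surroundings, 1297 endothelial-gated cells held 26854 CPM and the other 10414 held 1963 CPM, a ratio of 13.7 (13.1 to 14.2). That ratio was the third highest of 296 genes, after Stmn2 (30.7) and Tubb2b (18.4), and at least 2-fold ratios were seen for 12.8% of genes upward and 27.4% downward.

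Endothelial genes were in part lower in these cells: Clec14a was at 948 CPM, 0.436-fold (0.383 to 0.494) the level of endothelial-gated cells elsewhere, and Pecam1 was 0.731-fold. Cldn5 went the other way in the same cells, at 1.99-fold (1.93 to 2.06). Neuronal transcripts were counted in them too. In neural surroundings endothelial-gated cells held Stmn2 at 0.600 (0.592 to 0.608) and Tubb2b at 0.490 (0.479 to 0.502) times the level of the cells around them. For Spock2 the ratio was 1.25 (1.22 to 1.28) and for Mfsd2a 5.86 (5.60 to 6.14). In the same comparison 30.9% of 291 genes outside the gate were at least 2-fold higher and 3.78% lower in endothelial-gated cells. Restricted to cells with no Stmn2 count, 59 endothelial-gated cells in neural surroundings held 12864 CPM of Spock2, from 98 counts, and 8653 in other surroundings held 1250 CPM. The ratio was 10.3 (8.31 to 12.6), beside 13.1 (10.3 to 16.5) for Mfsd2a, 8.34 for Slc7a5 and 5.87 (4.02 to 8.29) for Tubb2b. The 969 other cells with no Stmn2 count in neural surroundings held 5684 CPM. The endothelial-gated ones were 2.26-fold (1.76 to 2.90) higher in Spock2, while Tubb2b was at 4332 against 33745 CPM. The comparison group also changed, since all other cells of neural surroundings held 21439 CPM of Spock2. At neuronal shares of 50 to 75%, other cells with no Stmn2 count had a median of 22.0 panel counts, against 116 in endothelial-gated ones. Col1a2 in these other cells was at 10755 CPM, against 1230 CPM in all other cells of that band. Depth and Col1a2 differed in the same directions at higher shares. The part of these shifts in the 2.26-fold ratio was not tested. How much Spock2 crossed cell borders was not tested.

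Spock2 was also compared in cells with like Stmn2 counts. With 5 to 9 Stmn2 counts, Spock2 was at 21173 CPM in 364 endothelial-gated cells and 14987 CPM in the other cells (1.41-fold, 1.34 to 1.49). These cells differed in depth, with medians of 153 and 65 panel counts, and so in Stmn2 level, at 36467 and 90941 CPM. The Spock2 ratio was 1.12 (1.06 to 1.17) with no Stmn2 count, 1.86 with 1 or 2 counts, 1.24 with 3 or 4, 1.28 with 10 to 19, 1.11 with 20 to 49 and 1.20 with 50 or more. All 7 intervals lay above 1. For Itm2a the ratio was 0.627 (0.618 to 0.637) with no Stmn2 count, 2.62 (2.35 to 2.93) with 5 to 9 and 1.58 (1.29 to 1.92) with 50 or more.

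**Figure D3:**
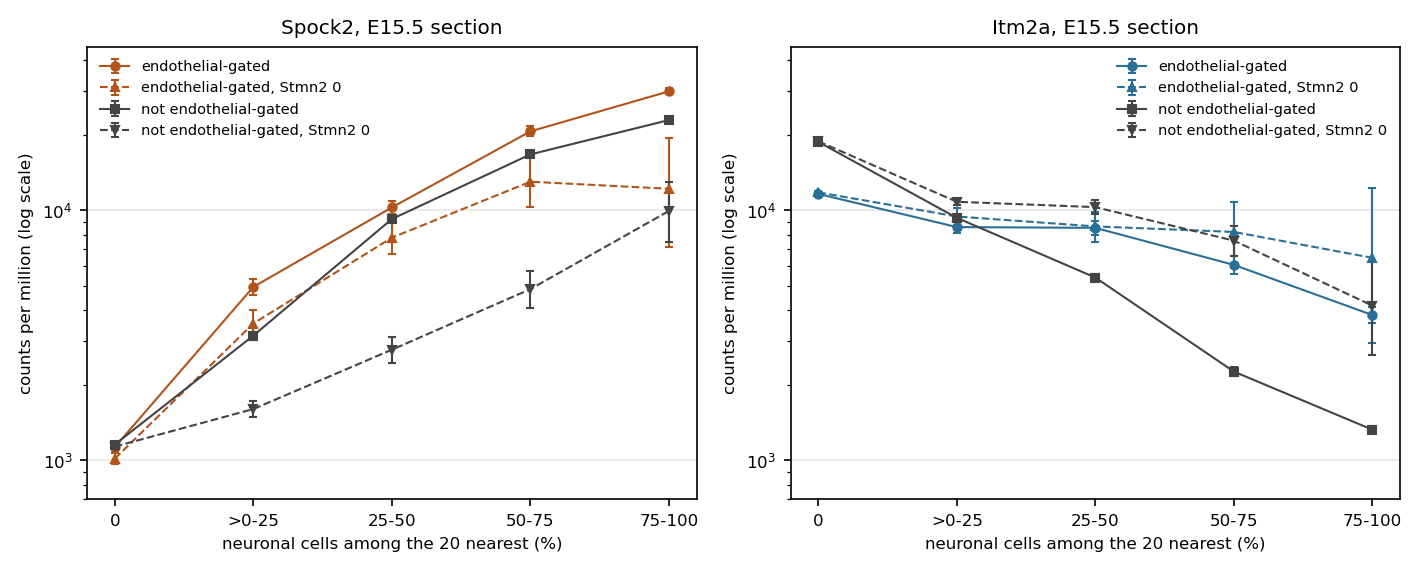
Spock2 (left) and Itm2a (right) in the E15.5 section by the share of neuronal cells among a cell's 20 nearest non-endothelial cells, in CPM on a log axis. Solid lines are all endothelial-gated (coloured) and other (grey) cells, dashed lines are those with no Stmn2 count, and bars are exact 95% Poisson intervals. Spock2 is higher with more neurons in all 4 groups apart from the last 2 bands of endothelial-gated cells with no Stmn2 count, whose intervals overlap, and Itm2a in endothelial-gated cells crosses from below to above that of other cells.

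Itm2a showed a crossing in the same bands. In endothelial-gated cells it was at 11635, 8569, 8509, 6051 and 3812 CPM from no neuronal neighbour to the highest band. In other cells it was at 18779, 9331, 5384, 2265 and 1326 CPM. Endothelial-gated cells thus held less Itm2a than other cells where there were few neurons and more where there were many. In neural surroundings the ratio was 2.93 (2.75 to 3.11), at 4555 against 1555 CPM, and elsewhere it was 0.636 (0.627 to 0.645), at 11201 against 17623 CPM. Among endothelial-gated cells themselves, Itm2a in neural surroundings was 0.407 (0.384 to 0.431) times that in others. Col1a2, a mesenchyme gene that the endothelial gate does not use, was at 9515, 10977, 10152, 4125 and 1376 CPM in endothelial-gated cells over the same bands. It was low with Itm2a in the 2 highest bands but not in the 2 before them, and the part of mesenchyme transcripts in these Itm2a values was not tested. Among cells with no Stmn2 count in neural surroundings, Itm2a was at 7876 CPM in endothelial-gated and 7000 CPM in other cells (1.13-fold, 0.833 to 1.5).

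The patch offered a second place where neighbours held much Spock2. There the cells outside the endothelial gate held 22255 CPM, close to the 21439 CPM of such cells in neural surroundings. The 227 endothelial-gated cells of the patch held 7891 CPM (7139 to 8700), a ratio of 0.355 (0.320 to 0.392), against 1.25 in neural surroundings. Their Stmn2 level was 901 CPM, and the 209 of them with no Stmn2 count held 8275 CPM of Spock2. Mfsd2a was at 959 CPM in the 227 cells, against 9419 CPM in endothelial-gated cells of neural surroundings. Wnt4, raised in the patch as a whole, was 1.42-fold (1.28 to 1.58) higher in its endothelial-gated cells, at 9360 CPM against 6574 CPM in its other cells. Where no neuronal cell was near and outside the patch, endothelial-gated cells held 900 CPM and other cells 752 CPM. Itm2a in the patch was low in both groups, at 1684 and 2232 CPM.

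Vessel types were approximated by gates of 3 or more counts on vessel genes within the endothelial gate, chosen after the panel was seen. Cells with the transporter genes Mfsd2a, Slco1c1 or Slc38a5 numbered 838 and held 27986 CPM of Spock2. Mfsd2a is not confined to vessels here: radial glia-gated cells held 21547 CPM of it, against 7996 CPM in endothelial-gated cells with high Stmn2 and 2242 CPM in all endothelial-gated cells. Those glial cells held 5791 CPM of Spock2, and their part in the transporter-gated values was not tested. In neural surroundings 441 of the 838 transporter-gated endothelial cells held 37126 CPM of Spock2. With no neuronal cell among their neighbours, 180 still held 10052 CPM (9147 to 11021), at 1864 CPM of Stmn2, and 176 of these lay outside the patch with 10104 CPM. Cells with none of the vessel gates and no neuronal neighbour held 878 CPM. Arterial-type cells, gated on the connexin genes Gja4 and Gja5, held 33745 CPM in neural surroundings (70 cells) and 521 CPM with no neuronal neighbour (616 cells). The latter value lies near the section's highest blank code, 449 CPM. Cells with the venous factor gene Nr2f2 held 28836 CPM in neural surroundings (20 cells) and 3961 CPM without neuronal neighbours, and in the latter 114 of 158 counts came from 20 cells of the patch. Lymphatic-type cells, gated on Prox1 and Lyve1, held 692 CPM without neuronal neighbours.

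Itm2a varied less over vessel types. With no neuronal neighbour it was at 6479 CPM in transporter-gated cells, 9706 CPM in arterial-type cells, 7622 CPM in Nr2f2 cells and 9025 CPM in lymphatic-type cells. Cells with none of these gates held 12472 CPM, the highest of the 5, and sinusoid-type cells, gated on Stab2, Oit3 and Clec4g, held 5420 CPM. In neural surroundings the level was lower in each of the 5, from 1922 CPM in Nr2f2 cells to 5266 CPM in transporter-gated cells. Transporter-gated cells had the smallest gap between the surroundings. Over endothelial-gated cells, the genes most like Spock2 were Stmn2 (r = 0.55), Tubb2b, Lrp8, Mfsd2a (0.45) and Slc7a5 (0.44). Those most like Itm2a were Dlk1 (0.29), Col1a2, Cdkn1c, Col5a2 and H19.

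**Figure D4:**
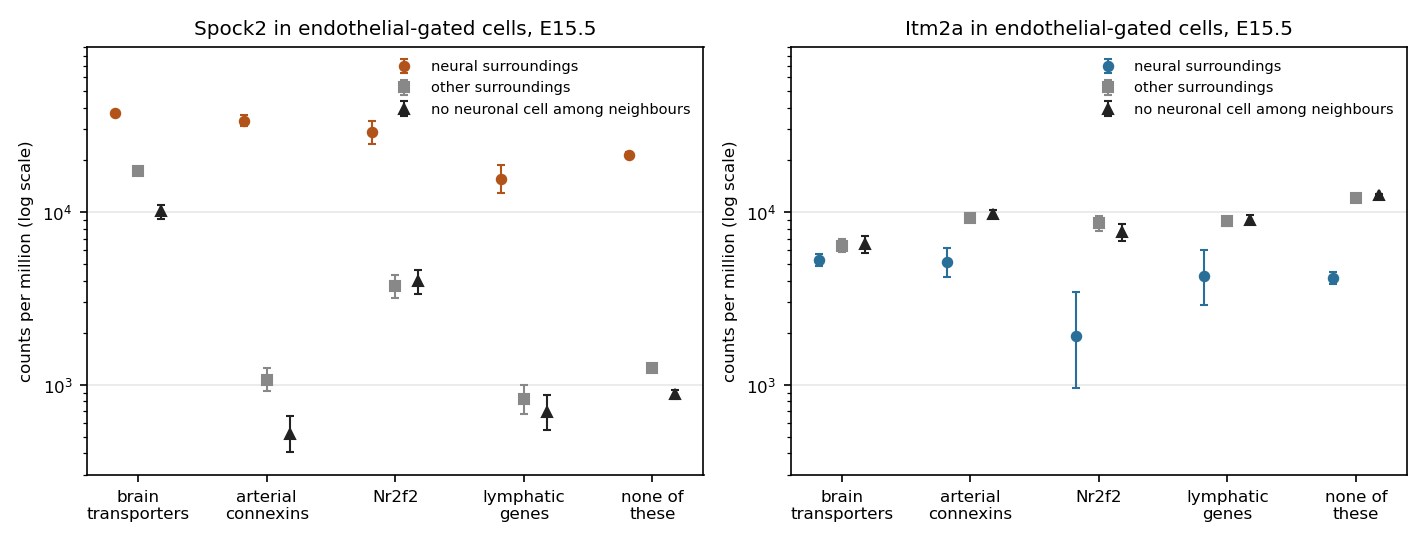
Spock2 (left) and Itm2a (right) in endothelial-gated cells of the E15.5 section by vessel gate and surroundings, in CPM on a log axis with exact 95% Poisson intervals. Circles are cells in neural surroundings, squares all others and triangles those with no neuronal cell among their neighbours. Transporter-gated cells keep 10052 CPM of Spock2 with no neuronal neighbour, where arterial-type cells hold 521 CPM.

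Itm2a in muscle-type cells depended on which muscle gene they held. Pdlim3-gated cells at E15.5 split by Myh11, the smooth muscle myosin heavy chain gene: 2382 cells with fewer than 5 Myh11 counts held 35537 CPM of Itm2a (35064 to 36015), and 235 cells with 5 or more held 6924 CPM (6329 to 7559). Without Pdlim3 the picture was alike. Cells with 5 or more Myh11 counts held 6031 CPM, and cells with Acta2 but fewer than 5 Myh11 counts held 30659 CPM. Cells with Gja5, a connexin gene of arteries and of the heart's atria and conduction system, held 31517 CPM with Pdlim3 and 25973 CPM without. Spock2 was between 291 and 862 CPM in all 6 groups, the highest in Myh11 cells. The lower of these values lie near or below the section's highest blank code, 449 CPM. Cdkn1c followed the same order in part, at 85770 CPM in Pdlim3-gated cells with little Myh11, 16058 CPM in those with more, and 110796 CPM in the Acta2 cells.

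**Figure D5:**
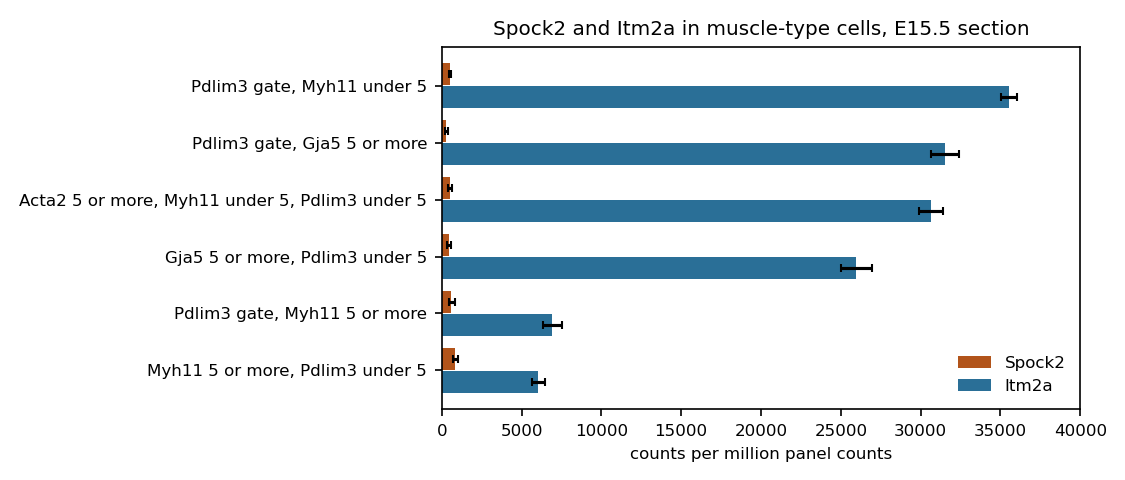
Spock2 and Itm2a in muscle-type cells of the E15.5 section outside the endothelial and neuronal gates, in CPM on a linear axis, with exact 95% Poisson intervals. The Gja5 group within the Pdlim3 gate lies wholly inside that gate's group with fewer than 5 Myh11 counts. The 235 cells with 5 or more Myh11 counts held 4 Gja5 counts in all. Itm2a lies between 25973 and 35537 CPM in the 4 upper groups and at 6924 and 6031 CPM in the 2 groups with 5 or more Myh11 counts.

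Across sections the muscle-type difference could be tested on E9.5 section 2 and E15.5 only, since E9.5 section 1 held 1 cell of the Acta2 and Myh11 gate. This gate pools the cells with and without Myh11. Itm2a was at 4448 CPM in 368 gated cells against 3375 CPM in the other cells of E9.5 section 2, and at 23545 CPM in 2940 gated cells against 17475 CPM at E15.5. It was higher in both sections, with CPM ratios of 1.32 and 1.35. The fits below scale the sums by factors of their own, and their log2 folds are not the log2 of these CPM ratios. The edgeR fit gave a log2 fold of 1.04 ± 0.62 for Itm2a (adjusted p = 0.588) with 1 residual degree of freedom, while DESeq2 gave 1.20 ± 0.36 (adjusted p = 0.00852) and a gate of 10 counts gave 0.39 by edgeR (adjusted p = 0.907). Spock2 was at 241 against 877 CPM and at 553 against 1583 CPM, CPM ratios of 0.274 and 0.349, with an edgeR log2 fold of -1.06 ± 0.75 (adjusted p = 0.741). For Itm2a the edgeR fold was larger than the CPM ratios, and for Spock2 it was nearer to no change. The value of 241 CPM lies below the highest blank code of E9.5 section 2, 380 CPM. By edgeR 1.02% of 294 genes were higher (Pdlim3, Gja5 and Casz1) and 0% lower, against 20 higher and 16 lower at an unadjusted p below 0.05 and 23 and 18 by DESeq2. None of the 9 brain endothelial and 13 matrix genes passed by edgeR, while 2 and 0 were lower at an unadjusted p below 0.05 and as many by DESeq2. At E9.5 the cells with few Myh11 counts made up nearly all of the gate, with 3 cells at 5 or more Myh11 counts outside the Pdlim3 gate, so the Myh11 split could not be read there.

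High Itm2a formed several separate areas. The top 10% of squares, 276 squares from 28036 CPM upward, fell into 31 connected patches, of which the 4 largest had 73, 61, 44 and 30 squares. They held 40449, 36175, 35016 and 37172 CPM of Itm2a and between 441 and 743 CPM of Spock2, where the highest blank code was at 449 CPM. Cdkn1c (63179 to 78222 CPM), the growth factor-like gene Dlk1 (42753 to 49478 CPM), Pdlim3 (1.97-fold to 3.59-fold) and the cell cycle inhibitor gene Cdkn1a (1.89-fold to 2.89-fold) were above the rest of the section in all 4. The second patch was led by Cytl1 at 2.98-fold. Col1a2 was between 0.873-fold and 1.16-fold, so the collagen gene most like Itm2a over all squares did not mark these patches. In cells outside the endothelial and neuronal gates, Itm2a was at 11446 CPM with no count of the mesenchyme genes, 20511 CPM with 1 or 2, 21609 CPM with 3 or 4, 20264 CPM with 5 to 9 and 18734 CPM with 10 or more. Spock2 over the same groups was at 2809, 1350, 854, 780 and 829 CPM.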

How the data were processed

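Per the file headers, the authors deposited a table of whole-number counts per segmented cell for each section and a second table with each cell's centre, its total transcript count and its volume, a signal-type value used here only to divide counts by volume and to leave out large cells. The headers give no unit for positions, which are read as micrometres. The labels name the Vizgen MERSCOPE platform, and Scanpy and Seurat appear, unversioned, in the submitters' processing notes. Settings for segmentation and decoding, and a genome build, were not given in the sources used, so no coordinates are printed.

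Kept cells held 68572, 1034730 and 21227345 counts of the 296 genes, with medians of 61.0, 128 and 84.0 per cell. No cell identifier was shared between sections. Blank codes stayed out of totals. No doublet caller was run.

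Counts were summed per section and cell group and tested with edgeR 4.0.16 (quasi-likelihood, TMM factors, section as a block) for genes that reached 30 counts over the sums, with p-values adjusted by the Benjamini-Hochberg method over all genes and called below 0.05. DESeq2 1.42.0 was an alternative. Genes of a gate are not counted in its comparison. Sections of different embryos are the only replicates. The code was tested on simulated data. All other values are descriptions, computed with Python 3.11.15, numpy 2.4.6, pandas 2.3.3 and scipy 1.17.1. Alternatives were other cell minima, no cell minimum, counts per volume, blank subtraction, other gates and other surroundings, and leaving out low-Gnas areas, large cells or 1 E9.5 section.

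The 2 genes, the gates and the gene lists were chosen with earlier results of these data known. Named genes are the 2 genes, the gate genes, the measured list members, the 5 genes most correlated with each and the leading genes of sources in which they are highest; genes of the patches, splits and vessel gates, and those behind counts of 5 or fewer, were named after their values were seen.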

Additional observations from a re-analysis of the deposited data

Results flagged for a closer look

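The endothelial difference of Itm2a had opposite directions in the 2 kinds of surroundings at E15.5: endothelial-gated cells over other cells were at 2.93 in neural and 0.636 in other surroundings. Among cells with no Stmn2 count the neural ratio was 1.13 (0.833 to 1.5), from 60 counts in 59 endothelial-gated cells. Its interval holds 1, so the direction cannot be read there. The comparison group also changed, with Itm2a at 7000 CPM in other cells with no Stmn2 count and 1555 CPM in all other cells of neural surroundings. This difference comes from 1 section and was not tested between sections. The difference between endothelial-gated and other cells was not the same at both stages for 3 genes by edgeR's interaction test: Vtn at 3.95 (log2, adjusted p = 0.00278), Sparcl1 at 2.58 (adjusted p = 0.0196) and Tll1 at -2.86 (adjusted p = 0.0479). The test has 1 residual degree of freedom, and without large cells it called 0 genes, with 34 higher and 5 lower at an unadjusted p below 0.05.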

How the results depend on the processing

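Endothelial-gated against other cells had 9 calls by edgeR: 0 without the low-Gnas areas, 5 with a stricter gate, 19 with upper-quartile factors, 37 by DESeq2 and 10 to 18 leaving out an E9.5 section. Spock2 was then -0.73 to -0.56 and Itm2a -0.69 to -0.20, and without the low-Gnas areas Spock2 was -0.31 and Itm2a turned to 0.03. Spock2 ran from -1.17 to -0.31 over all settings. The muscle-type comparison had 3 calls: 0 without large cells (14 higher and 12 lower unadjusted), 0 with blanks subtracted (10 and 5), 0 with upper-quartile factors (12 and 16), 11 without the low-Gnas areas, 1 with a gate of 10 counts (Itm2a 0.39), 5 with a gate of 3 (Itm2a 1.23), and 41 by DESeq2, where Itm2a was 1.20. The stage interaction had 3 calls: 0 without large cells (34 and 5 unadjusted), and 5 each with 20 panel counts, blanks subtracted or upper-quartile factors. Without the low-Gnas areas Spock2 was 0.36 and Itm2a -1.10. Leaving out a section, Itm2a ran from -0.59 to 0.44, the latter without replicate 2, and Spock2 was 1.27 without replicate 1. The causes were not tested.

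The mean log2 fold of E15.5 over E9.5 was 2.49 for Spock2 (2.06 to 2.92 leaving out a section, 3.33 without the low-Gnas areas) and 2.33 for Itm2a (1.97 to 2.68). Spock2 in neuronal over cells outside both gates, 13.7, was 16.7 per volume, 15 with blanks subtracted, 10.2 with 10 Stmn2 counts and 18 without the patch. Itm2a in endothelial-gated over those cells, 0.582, was 0.754 per volume, 0.498 with the stricter gate, 0.608 with 10 Stmn2 counts and 0.654 with Stmn2 at 0. In neural over other surroundings, Spock2 was 14.4 with 20 panel counts, 17.4 per volume, 14.8 with blanks subtracted, 15.2 and 10.4 at neuronal shares of 25 and 75%, 10.3 with Stmn2 at 0, 13.0 with no other cell centre within 8 micrometres and 15 without the patch. Itm2a was 0.517 per volume, 0.494 and 0.348 at those shares and 0.677 with Stmn2 at 0. Settings without the patch were chosen after seeing the data.

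E15.5 has 1 section, so no difference there carries the spread between embryos, and intervals cover counting error only. Calls rest on 1 or 2 residual degrees of freedom. Neuronal comparisons and muscle-type ones without a section could not be fitted, as 1 section would remain. Tests of cell groups were blocked by section. No paired analysis was possible because across stages only 1 replicate number is shared, and it names different embryos.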

Other observations

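Cells with both genes were a small part of all kept cells. At E15.5 20.1% of kept cells had a Spock2 count, 41.5% an Itm2a count and 5.83% both. In endothelial-gated cells in neural surroundings 82.3% had Spock2 (80.1 to 84.3, exact Clopper-Pearson), 49.7% Itm2a and 40.6% both, at a median of 187 panel counts. In the other cells of these surroundings the shares were 68.5% for Spock2 and 12.7% for Itm2a, with both in 3406 of 33982 cells, at a median of 95 counts. In endothelial-gated cells elsewhere they were 13.6%, 59.0% and 8.11%, at a median of 150. The highest count in 1 cell at E15.5 was 59 for Spock2, in a neuronal cell, and 53 for Itm2a.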
